A study of Mus musculus with 16 samples.

Results

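The 8 genes described here encode the enzymes that write, copy and remove DNA methylation in mouse cells, together with *Gadd45a*, a stress protein linked to its removal. They were taken by gene name from the 46078 genes counted in every library, and each of the 8 names matched a single gene. RNA had been sequenced from 16 libraries of sorted bone marrow erythroblasts. Polychromatic erythroblasts (Poly-E) and the later, smaller orthochromatic erythroblasts (Ortho-E) were sorted by their Ter119 and CD44 staining. Each population came from Ypel4+/+ and from Ypel4-/- mice, so that the 4 groups held 4 libraries apiece. The labels give 1 strain name for all groups, with the background C57BL/6N-A<tm1Brd> and the allele Ypel4<tm1a(EUCOMM)Wtsi>, of the line WtsiIeg. The Ypel4-/- mice were homozygous for this allele, a conventional knockout whose trap cassette stops transcription of the coding exons in the whole animal and not in erythroid cells alone. Both genotypes were at steady state with no treatment named, and the age and sex of the sequenced mice are not given in the sources used here.

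Methylation of cytosine in CpG pairs is copied onto the new DNA strand after replication by DNMT1, while DNMT3A and DNMT3B place methyl groups on sites that had none. The TET dioxygenases oxidise 5-methylcytosine, and the glycosylase TDG cuts out the more oxidised forms so that base excision repair can put an unmodified cytosine back. Methylation is also lost passively when DNMT1 does not keep pace with replication. Terminal erythroid differentiation is known as a setting in which methylation falls across the genome while the cells divide a few last times, condense their nuclei and stop transcribing most genes.

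The libraries held 2670173 to 12451234 counts (1 count is a read pair assigned to the exons of a gene). The 12 erythroid markers all had counts in each group, and their summed level ranged from 57621 to 70261 CPM (counts per 1000000 counts) in Poly-E and from 233579 to 321667 CPM in Ortho-E. CPM here are scaled with edgeR's TMM factors, which were 1.45 to 1.64 in the 8 Poly-E and 0.606 to 0.726 in the 8 Ortho-E libraries. *Ypel4*, the targeted gene, lay between 490 and 716 CPM in the Ypel4+/+ and between 9.90 and 23.6 CPM in the Ypel4-/- libraries of Poly-E. In Ortho-E it lay between 4432 and 5440 CPM and between 175 and 224 CPM, so every library matched its genotype label. Summed markers of macrophages reached at most 8.87 CPM, of T cells 0.450 CPM and of stem and progenitor cells 0.571 CPM. Those of granulocytes and monocytes summed to 2.26 to 5.67 CPM in Poly-E and 5.19 to 20.8 CPM in Ortho-E. Of these 12 markers, 10 or 11 had counts in each group, and those without a count were *Elane*, *Prtn3* or both. Markers of megakaryocytes summed to 26.7 to 35.6 CPM in Poly-E and 90.0 to 113 CPM in Ortho-E. B cell markers summed to 13.5 to 31.6 CPM in Poly-E, and in Ortho-E to 21.1 to 30.4 CPM in Ypel4+/+ and 35.5 to 47.7 CPM in Ypel4-/- libraries.

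Of the 8 genes, 4 were expressed well enough to be compared: *Dnmt1*, *Tet3*, *Gadd45a* and *Tdg*. The other 4, *Dnmt3a*, *Dnmt3b*, *Tet1* and *Tet2*, had at most 14 counts in any library. The 8 genes took 0.0959 to 0.131% of all counts in Poly-E and 0.0753 to 0.109% in Ortho-E.

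**Figure D1:**
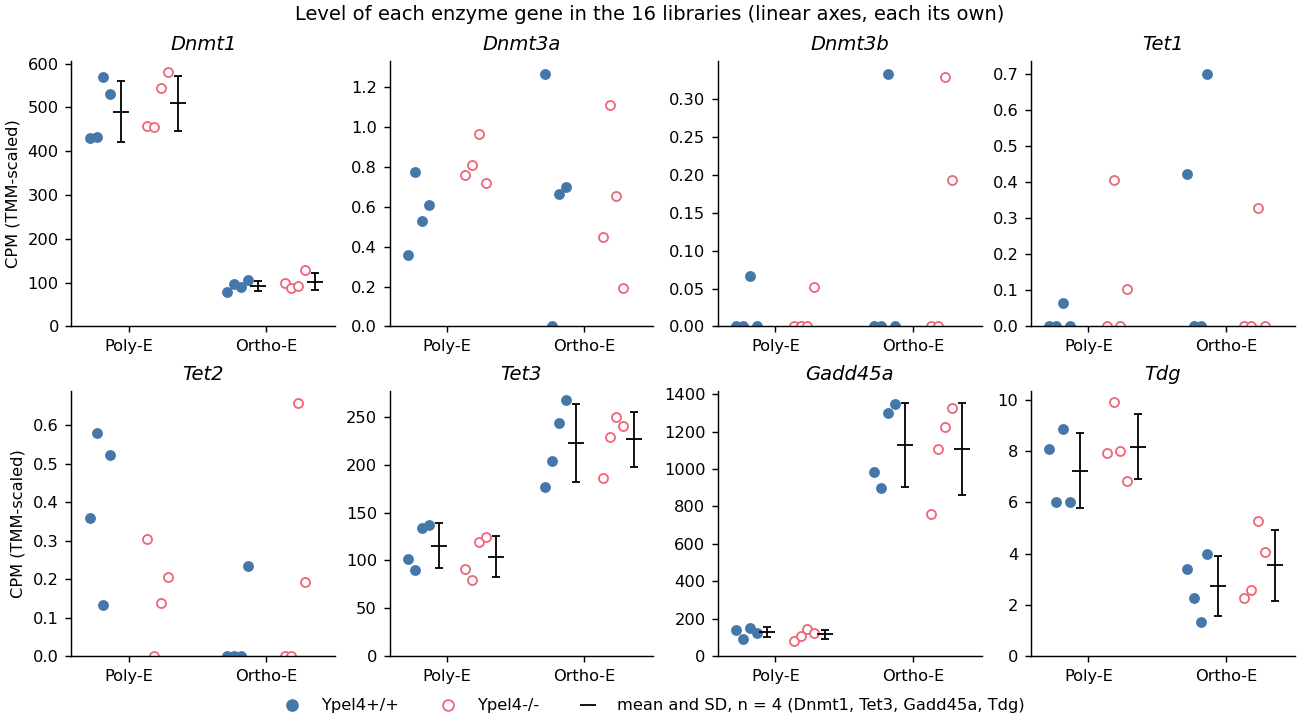
Level of each of the 8 genes in the 16 libraries, in TMM-scaled CPM on linear axes that differ between panels. Points are libraries (filled blue, Ypel4+/+, open red, Ypel4-/-), and for *Dnmt1*, *Tet3*, *Gadd45a* and *Tdg* the bar gives the mean and SD of 4 libraries. *Dnmt1* lies at 431 to 581 CPM in Poly-E and 78.2 to 130 CPM in Ortho-E, *Gadd45a* at 83.5 to 151 and 762 to 1345 CPM, and genotypes overlap in each panel. The rise of *Tet3* holds on this scale and not with library totals alone.

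Per kilobase of exon (FPKM, CPM divided by the summed exon length in kilobases), *Dnmt1* and *Gadd45a* were the most abundant of the 8 in Poly-E. In Ypel4+/+ Poly-E, *Dnmt1* was at 77.8 ± 11.2 FPKM (SD, n = 4) and *Gadd45a* at 72.2 ± 14.7 FPKM (SD, n = 4), and *Dnmt1* was the higher of the pair in 3 of 4 libraries, so this order was within the spread. *Tet3* followed at 9.61 ± 1.96 FPKM and *Tdg* at 1.35 ± 0.272 FPKM. *Dnmt3a* was at 0.034 ± 0.010 FPKM, and *Dnmt3b*, *Tet1* and *Tet2* were lower. In Ypel4-/- Poly-E the order was the same for the leading 4, with *Dnmt1* at 80.8 ± 10.02 and *Gadd45a* at 65.5 ± 14.6 FPKM, and *Dnmt1* was higher in 4 of 4 libraries. However, 337 of the 1764 exon bases of *Gadd45a* are shared with another gene, and pairs that match both genes were not counted. Its FPKM may therefore be too low, so the order of *Dnmt1* and *Gadd45a* in Poly-E was not settled.

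The order changed in Ortho-E. *Gadd45a* led at 641 ± 127 FPKM in Ypel4+/+ and 627 ± 140 FPKM in Ypel4-/- libraries (SD, n = 4 each). *Tet3* was at 18.6 ± 3.404 and 18.9 ± 2.38 FPKM and *Dnmt1* at 14.7 ± 1.87 and 16.2 ± 2.98 FPKM in the same groups. *Tet3* lay above *Dnmt1* in 4 of 4 Ypel4+/+ libraries but in 2 of 4 Ypel4-/- libraries, so these neighbours could not be ordered in Ypel4-/- cells. *Tdg* was at 0.510 ± 0.217 and 0.658 ± 0.257 FPKM.

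Each gene has 1 or more annotated start sites in RefSeq, and the 300 bases around these sites (250 before and 50 after) were searched on both strands for short words that known factors read. The word CCAAT is the site of NF-Y, and the E2F words were TTTCCCGC, TTTGGCGC, TTTCGCGC and TTTGCCGC. For the GATA factors, first AGATAA was searched and then, in the same windows and counted with it, TGATAA. The stretches below hold such a word in the 4 expressed genes, printed in the direction of the gene with the word in capitals (GRCm38.p6). They are shown because these are the genes whose levels the comparisons turn on.
Dnmt1, chr9:20952824-20952853, minus strand: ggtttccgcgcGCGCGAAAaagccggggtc
Gadd45a, chr6:67037467-67037577, minus strand: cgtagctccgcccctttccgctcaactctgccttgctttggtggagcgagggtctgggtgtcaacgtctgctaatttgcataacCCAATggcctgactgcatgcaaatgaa
Tet3, chr6:83441689-83441798, minus strand: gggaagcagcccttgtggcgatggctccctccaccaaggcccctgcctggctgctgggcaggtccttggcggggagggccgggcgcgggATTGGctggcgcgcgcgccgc
Tdg, chr10:82629718-82629822, plus strand: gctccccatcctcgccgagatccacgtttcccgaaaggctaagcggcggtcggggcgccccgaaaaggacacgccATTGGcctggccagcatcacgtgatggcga

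In *Dnmt1* the capitals mark an E2F word on the opposite strand, which lies 219 bases before the start site at 20952623. The printed stretch overlaps annotated exons of the transcripts Dnmt1-201 and Dnmt1-205. A second E2F word begins 34 bases after the same start site. E2F words occur in 2.26% of all 32851 RefSeq windows, and among the 12 windows of the 8 genes this was the single window that held any. In *Gadd45a* the capitals mark CCAAT 86 bases before the start site, and in *Tet3* and *Tdg* its reverse complement, 31 and 45 bases before. A reverse CCAAT word ends at the first 2 bases of the *Dnmt1* stretch, whose own word overlaps no other. The stretch of *Tet3* overlaps an exon of the noncoding B230319C09Rik. CCAAT was found in 5 of the 12 windows, beside 37.4% of all windows, so its share was close to that of genes at large. These 5 were the windows of *Tet3*, *Gadd45a* and *Tdg* and 2 of the 3 of *Dnmt1*, while the windows of *Dnmt3a*, *Dnmt3b*, *Tet1* and *Tet2* held none of the words. The GATA words, found in 18.6% of all windows, were in 0 of the 12. A match describes the letters alone.

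*Dnmt1* (ENSMUSG00000004099), the maintenance methyltransferase, lies on chromosome 9 from 20907206 to 20959888 on the minus strand of GRCm38, with 6304 bases of exon. In Ypel4+/+ mice it was at 431, 432, 570 and 530 CPM in the 4 Poly-E libraries and at 78.2, 96.6, 90.3 and 106 CPM in the 4 Ortho-E libraries. The Ypel4-/- libraries stood at 458, 454, 544 and 581 CPM (Poly-E) and at 99.4, 88.6, 91.6 and 130 CPM in Ortho-E. Every Ortho-E library lay below every Poly-E library, in each genotype.

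*Dnmt1* fell by 2.37 in log2 terms from Poly-E to Ortho-E in Ypel4+/+ cells, with a standard error of 0.14 (adjusted p = 3.61e-14, edgeR's quasi-likelihood fit, Benjamini-Hochberg), a level 5.15-fold lower. In Ypel4-/- cells it fell by 2.15 (SE 0.13; adjusted p = 1.39e-15), a level 4.44-fold lower. The fall was seen in 4 of 4 same-numbered pairs of libraries of each genotype. Of all genes tested, 3.81% in Ypel4+/+ and 5.30% in Ypel4-/- cells had a lower fold change than *Dnmt1*. Bulk RNA cannot tell fewer cells that express a gene from less of its RNA in each cell. The 10 S phase markers (among them *Mcm2*, a helicase subunit, and *Rrm2*, which supplies nucleotides) moved with it: all 10 were called lower in both genotypes, and their sum was 4737 to 5490 CPM in Poly-E and 1155 to 1446 CPM in Ortho-E. By the same threshold 32.1% of all genes in Ypel4+/+ and 31.5% in Ypel4-/- cells were called lower. The part of the S phase markers in the result was not tested.

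The scale matters for every value in this comparison, since the TMM factors differ between the populations. With TMM, 6871 of 11747 genes were called in Ypel4+/+ cells (58.5%), 3097 higher (26.4%) and 3774 lower (32.1%), and the median log2 fold change of all genes was −0.19. In Ypel4-/- cells 7305 of 11973 were called (61%), 3538 higher (29.5%) and 3767 lower (31.5%), with a median of −0.09. With library totals in place of TMM the counts were 8303 (70.7%), of which 1217 were higher and 7086 lower, and 8626 (72.0%), of which 1338 were higher and 7288 lower, and the medians were −1.45 and −1.47. Of the 8 genes, 6 entered each fit and 4 were called, 2 higher and 2 lower, in each genotype, so their share was near that of all genes. *Dnmt1* was lower under both scalings (−3.65 and −3.56 with library totals), and its distance from the median of all genes was −2.17 and −2.06 with TMM.

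**Figure D2:**
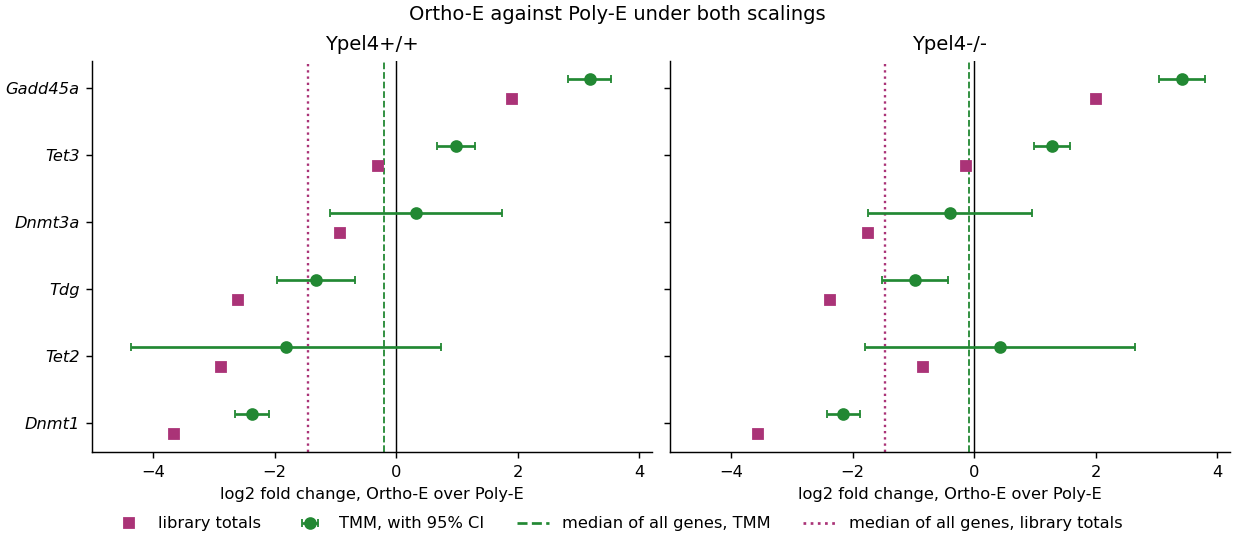
Log2 fold change of the 6 tested genes between Ortho-E and Poly-E cells, for Ypel4+/+ (left) and Ypel4-/- mice (right). Circles are TMM-scaled fits with 95% confidence intervals, squares are fits to library totals, and the dashed and dotted lines mark the median of all genes under each scaling. *Gadd45a* lies right, and *Dnmt1* and *Tdg* left, of 0 and of the median of the same scaling in each panel, while *Tet3* is at 0.99 and 1.28 with TMM and at −0.30 and −0.13 with library totals.

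The de novo enzymes were close to the limit of detection. *Dnmt3a* (ENSMUSG00000020661, chromosome 12 from 3806007 to 3914443, plus strand) had 2, 4, 8 and 7 counts in Ypel4+/+ Poly-E and 5, 4, 7 and 14 in Ypel4-/- Poly-E. In Ortho-E it had 3, 0, 2 and 3 counts in Ypel4+/+ and 1, 3, 2 and 1 in Ypel4-/- libraries. A count of 0 in a whole group would have allowed up to 3 counts, or 0.122 to 0.167 CPM of the library totals, so these counts were low but above that limit. The fitted change from Poly-E to Ortho-E was 0.33 ± 0.69 (SE; adjusted p = 0.704, edgeR) in Ypel4+/+ and −0.40 ± 0.66 (SE; adjusted p = 0.627) in Ypel4-/- cells on the log2 scale, with 95% confidence intervals from −1.08 to 1.74 and from −1.74 to 0.95. With library totals the Ypel4-/- value was −1.75 and was called (adjusted p = 0.013). *Dnmt3b* (ENSMUSG00000027478, chromosome 2 from 153649450 to 153687730, plus strand) had 5 counts in all 16 libraries, with 1, 1, 1 and 2 in the 4 groups. It had too few counts for any fit.

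*Tet3* (ENSMUSG00000034832, chromosome 6 from 83362373 to 83459084, minus strand, 11999 bases of exon) took nearly all TET counts, 14604 over the 16 libraries. Its level in Ypel4+/+ mice was 101, 89.6, 134 and 137 CPM (Poly-E) and 177, 203, 244 and 268 CPM in Ortho-E. The Ypel4-/- values were 91.2, 80.0, 119 and 125 CPM (Poly-E) and 186, 229, 250 and 241 CPM in Ortho-E. On this scale the populations did not overlap in either genotype.

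*Tet3* was higher in Ortho-E by 0.99 ± 0.15 (SE; adjusted p = 3.64e-06, edgeR) in Ypel4+/+ and by 1.28 ± 0.14 (SE; adjusted p = 4.54e-09) in Ypel4-/- cells with TMM, and at −0.30 (adjusted p = 0.096) and −0.13 (adjusted p = 0.357) with library totals, where it was not called and the populations overlapped. As a share of all counts, *Tet3* in Ypel4+/+ mice made up 138 to 213 CPM of the library totals in Poly-E and 107 to 166 in Ortho-E. By that share it was lower in Ortho-E in 4 of 4 Ypel4+/+ and in 3 of 4 Ypel4-/- pairs. Relative to the median of all genes it was 1.18 and 1.37 above with TMM and 1.15 and 1.34 above with library totals. Of all genes tested, 74.7% and 77.2% had a lower fold change.

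*Tet1* (ENSMUSG00000047146, chromosome 10 from 62804570 to 62899118, minus strand) had 10 counts over all 16 libraries, 1 and 4 in Ypel4+/+ and Ypel4-/- Poly-E and 4 and 1 in Ypel4+/+ and Ypel4-/- Ortho-E. *Tet2* (ENSMUSG00000040943, chromosome 3 from 133463679 to 133545139, minus strand) had 2, 3, 2 and 6 counts in Ypel4+/+ Poly-E and 0, 0, 0 and 1 in Ypel4+/+ Ortho-E. Its Ypel4-/- counts were 2, 0, 1 and 4 (Poly-E) and 0, 0, 2 and 1 (Ortho-E). The fitted log2 change of *Tet2* was −1.82 ± 1.24 (SE; adjusted p = 0.215, edgeR) in Ypel4+/+ and 0.42 ± 1.09 (SE; adjusted p = 0.758) in Ypel4-/- cells. With library totals it was −2.89 and called in Ypel4+/+ cells (adjusted p = 0.021) and −0.84 in Ypel4-/- cells, and these values rest on a group with 1 count and a group with 3. Without Ypel4+/+ Ortho-E replicate 4, which held that 1 count, the Ypel4+/+ value with TMM was −4.28, and with each other library left out in turn it ran from −2.10 to −1.46 in the fits that kept the gene.

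*Tdg* (ENSMUSG00000034674, chromosome 10 from 82629828 to 82650799, plus strand, 5374 bases of exon) encodes the glycosylase that removes oxidised methylcytosine and thymine from mismatches with guanine. In Ypel4+/+ mice its level was 8.08, 6.00, 8.87 and 6.00 CPM (Poly-E) and 3.38, 2.29, 1.33 and 3.96 CPM (Ortho-E), the latter from 4 to 17 counts a library. The Ypel4-/- libraries had 7.92, 9.92, 8.001 and 6.84 CPM (Poly-E) and 2.25, 2.60, 5.25 and 4.05 CPM in Ortho-E. No Ortho-E library reached a Poly-E library of its genotype. *Tdg* fell by 1.31 in log2 terms (SE 0.31; adjusted p = 0.00069, edgeR) in Ypel4+/+ and by 0.97 (SE 0.26; adjusted p = 0.0019) in Ypel4-/- cells, in 4 of 4 such pairs of each genotype. With library totals it fell by 2.60 and 2.38. Its distance from the median of all genes was −1.12 and −0.88 with TMM and −1.15 and −0.90 with library totals. With TMM 24.1% and 29.6% of the genes tested had a lower fold change. *Glt8d2*, which shares 367 exon bases with *Tdg* on the other strand, had 1 count in all libraries, beside 653 for *Tdg*. Pairs that match both genes were left out of the counts.

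*Gadd45a* (ENSMUSG00000036390, chromosome 6 from 67035096 to 67037457, minus strand, 1764 bases of exon) encodes a small stress-induced protein that binds repair and cell cycle proteins and has been tied to active demethylation. Its 4 Ypel4+/+ libraries of each population stood at 142, 92.1, 151 and 125 CPM (Poly-E) and 982, 897, 1299 and 1345 CPM (Ortho-E). Ypel4-/- libraries stood at 83.5, 109.1, 144 and 126 CPM (Poly-E) and 762, 1106, 1224 and 1329 CPM in Ortho-E. The populations were far apart: the lowest Ortho-E library was at 762 CPM and the highest Poly-E library at 151 CPM.

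*Gadd45a* rose by 3.18 ± 0.17 (SE; adjusted p = 4.65e-13, edgeR) in Ypel4+/+ and by 3.42 ± 0.18 (SE; adjusted p = 1.22e-12) in Ypel4-/- cells on the log2 scale, or 9.08- and 10.7-fold. With library totals the rise was 1.90 and 2.00, also called. It was seen in 4 of 4 such pairs of each genotype, and 97.9% and 97.8% of the genes tested had a lower fold change. *E230016M11Rik*, a noncoding gene on the opposite strand, shares 337 of the exon bases of *Gadd45a*, and the counting ignored strand. The antisense gene had 78 counts in Ypel4+/+ Poly-E and 159 in Ypel4+/+ Ortho-E, beside 4981 and 13563 for *Gadd45a*. Pairs that match both genes were left out of the counts. These numbers therefore do not give the reads in the shared bases, which are 19.1% of the *Gadd45a* exon length.

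Because ratios within a library do not depend on its scaling, the summed level of *Tet1*, *Tet2* and *Tet3* was set against that of *Dnmt1*, per kilobase of exon. The ratio was 0.125, 0.111, 0.124 and 0.136 in the 4 Ypel4+/+ Poly-E libraries and 1.19, 1.10, 1.42 and 1.33 in the 4 Ypel4+/+ Ortho-E libraries. The Ypel4-/- ratios were 0.106, 0.0941, 0.116 and 0.113 (Poly-E) and 0.982, 1.35, 1.44 and 0.976 in Ortho-E. The populations did not overlap, and nearly all of the TET sum came from *Tet3*.

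The mean log2 ratio differed between Ortho-E and Poly-E by 3.34 in Ypel4+/+ and by 3.45 in Ypel4-/- cells, or 10.1- and 10.9-fold. The exact two-sided permutation p was 0.029 in each genotype, the smallest that 4 libraries against 4 allow, and 0.086 after adjustment over the 12 ratio tests, so the differences did not pass the threshold of 0.05 after adjustment. With this smallest p, full separation in every ratio test between populations would by itself not have passed either. The adjusted value therefore could not decide whether the ratio differs. Between genotypes the same ratio differed by −0.21 in Poly-E (exact permutation p = 0.086, adjusted 0.206) and by −0.10 in Ortho-E (p = 0.629, adjusted 0.935). In Poly-E it was lower in Ypel4-/- in 4 of 4 same-numbered pairs, where an exact paired test could not go below p = 0.125. The numbers were not shown to pair libraries of different genotypes. The ratio of *Dnmt3a* plus *Dnmt3b* to *Dnmt1* and that of *Tet2* to *Tet3* were also computed. The former was higher in Ortho-E by 3.67 and 3.25 and the latter by 0.26 and 0.12 in log2 terms (Ypel4+/+, Ypel4-/-), but *Dnmt3a* had 0 to 3 and *Tet2* 0 to 2 counts in each Ortho-E library, so the pseudocount of 0.5 weighs heavily in these values.

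**Figure D3:**
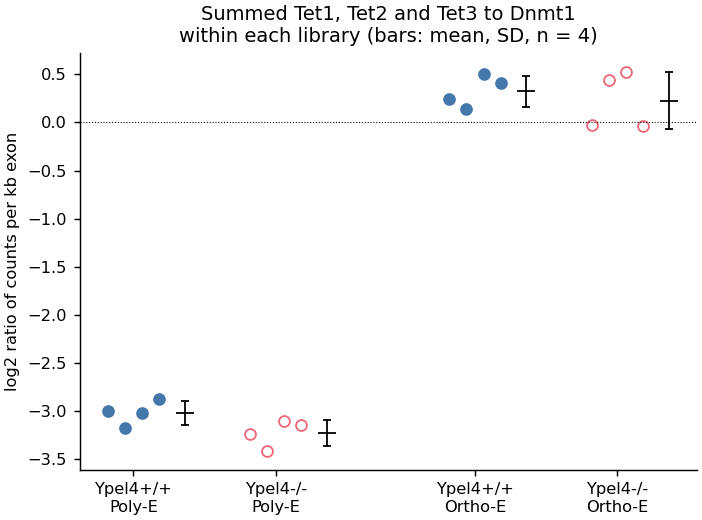
Log2 ratio of summed *Tet1*, *Tet2* and *Tet3* to *Dnmt1*, each in counts per kilobase of exon, in every library. Points are libraries and bars are the mean and SD of 4 libraries. Poly-E libraries lie between −3.41 and −2.88 and Ortho-E libraries between −0.04 and 0.52.

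The study asked what the loss of *Ypel4* changes in these erythroblasts, and none of the genes described here that could be tested passed between genotypes. In Poly-E cells edgeR called 1 of 12395 genes (0.00807%), *Ypel4* itself, and in Ortho-E cells 3 of 10521 (0.0285%), with 271 and 387 at an unadjusted p under 0.05, and DESeq2 called 2 and 4. None of the 6 members tested in Poly-E and none of the 5 tested in Ortho-E was called, by edgeR or by DESeq2, and none had an unadjusted p under 0.05. *Dnmt3b* and *Tet1* had too few counts for either fit, and *Tet2* for that of Ortho-E.

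*Dnmt1* differed between Ypel4-/- and Ypel4+/+ libraries by 0.06 on the log2 scale in Poly-E (95% confidence interval −0.19 to 0.31, adjusted p = 1.00, edgeR) and by 0.16 in Ortho-E (−0.09 to 0.41, adjusted p = 0.996). *Tet3* differed by −0.15 in Poly-E (−0.49 to 0.20) and by 0.04 in Ortho-E (−0.19 to 0.28). With the replicate number as a block the Poly-E value of *Tet3* was also −0.15, with a narrower interval (−0.31 to 0.0080, unadjusted p = 0.062, adjusted p = 1.00, edgeR). Its CPM was lower in Ypel4-/- in 4 of 4 same-numbered Poly-E pairs with TMM and in 3 of 4 with library totals. The numbers were not shown to pair libraries of different genotypes. *Gadd45a* differed by −0.14 (−0.50 to 0.22) and by −0.02 (−0.32 to 0.28). Across these 3 genes and both populations the intervals ran from 0.709-fold to 1.33-fold.

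The data were less precise for the genes with few counts. *Tdg* differed by 0.14 in Poly-E (95% confidence interval −0.26 to 0.53) and by 0.38 in Ortho-E (−0.43 to 1.19). *Dnmt3a* differed by 0.50 in Poly-E (−0.44 to 1.44) and by −0.30 in Ortho-E (−2.01 to 1.42). *Tet2* differed by −0.97 in Poly-E (−2.59 to 0.64) and had too few counts for a fit in Ortho-E. In Ortho-E the summed B cell markers were higher in each Ypel4-/- than in each Ypel4+/+ library, as given above, and none of the 6 was called. Their part in these values was not tested.

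**Figure D4:**
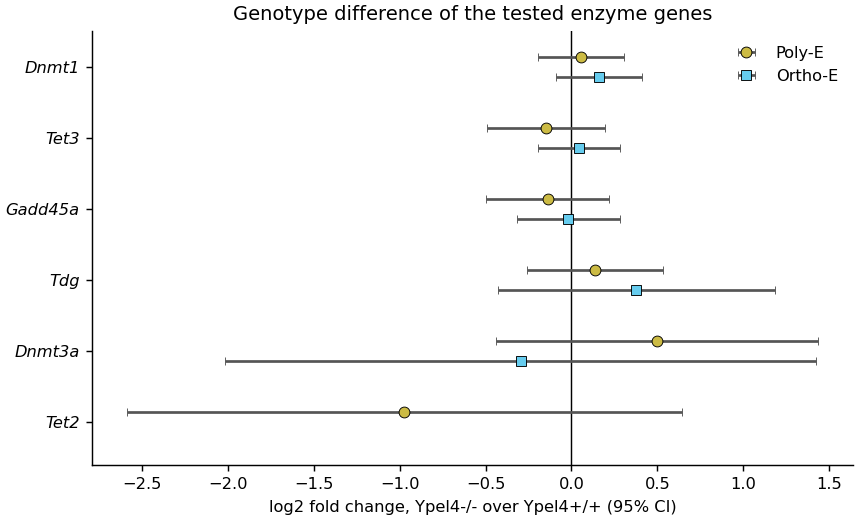
Log2 fold change of the tested genes between Ypel4-/- and Ypel4+/+ cells, in Poly-E (circles) and Ortho-E (squares), with 95% confidence intervals. Every interval includes 0, those of *Dnmt1*, *Tet3* and *Gadd45a* within −0.50 and 0.41, and *Tet2* was not tested in Ortho-E.

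The change from Poly-E to Ortho-E was also compared between genotypes with an interaction term over all 16 libraries. It called 0 of 13318 genes (0%) with edgeR and 1 with DESeq2, while 364 had an unadjusted p under 0.05 with edgeR. The interaction was 0.09 for *Dnmt1* (95% confidence interval −0.29 to 0.48), 0.17 for *Tet3* (−0.27 to 0.61), 0.11 for *Gadd45a* (−0.48 to 0.69) and 0.23 for *Tdg* (−0.63 to 1.09) on the log2 scale, each with an adjusted p of 1.00. For *Tet1*, tested in this fit alone, it was −3.35 (−7.11 to 0.41) from 10 counts, and for *Dnmt3a* and *Tet2* it was −0.83 (−2.70 to 1.03) and 2.19 (−1.18 to 5.56). The value for *Tet2* ran from 1.11 without Ypel4-/- Ortho-E replicate 3 to 4.63 without Ypel4+/+ Ortho-E replicate 4. These fits treat same-numbered Poly-E and Ortho-E libraries as separate. With the replicate number of each genotype as a block, the 95% confidence intervals of the interaction were −0.18 to 0.35 for *Dnmt1* and −0.08 to 0.44 for *Tet3*. For *Gadd45a* and *Tdg* they were −0.14 to 0.35 and −0.59 to 1.05.

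The 8 genes work with partners, readers and suppliers, and 45 such genes were read from the same fits. In Ypel4+/+ cells 37 of the 45 were tested between Ortho-E and Poly-E, and 10 were called higher, 17 lower and 10 not. In Ypel4-/- cells 39 were tested, with 10 higher, 19 lower and 10 not called. These shares stand beside 58.5% of all genes called in Ypel4+/+ (26.4% higher, 32.1% lower) and 61% in Ypel4-/- cells (29.5% higher, 31.5% lower). With library totals 2 of the tested genes were called higher and 27 lower in Ypel4+/+ and 3 higher and 26 lower in Ypel4-/- cells, where 10.4% and 11.2% of all genes were called higher and 60.3% and 60.9% lower. The median log2 fold change of the tested genes was −0.75 and −0.41 in the respective genotypes, beside −0.19 and −0.09 for all genes. Of the 45, 17 were called lower and 9 higher in both genotypes. With library totals all genes called lower kept their sign, as did all called higher except *Usp7* in both genotypes and *Uhrf2* in Ypel4-/- cells, which were picked out after their values were seen.

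Of the 6 maintenance partners of DNMT1, 4 were called lower and 1 higher in Ypel4+/+ and 4 lower and 2 higher in Ypel4-/- cells. With library totals none was called higher, and 6 and 5 were called lower (edgeR, by the same threshold). Of all genes in Ypel4+/+ and Ypel4-/- cells, 32.1% and 31.5% were called lower and 26.4% and 29.5% higher with TMM. With library totals 60.3% and 60.9% were called lower. *Uhrf1*, which binds half-methylated CpG sites and brings DNMT1 to them, was at 543 ± 39.5 CPM in Ypel4+/+ Poly-E and 123 ± 17.1 CPM in Ypel4+/+ Ortho-E (SD, n = 4 each), and fell by 2.11 (adjusted p = 1.21e-13, edgeR) and in Ypel4-/- cells by 2.04. *Pcna*, the sliding clamp of replication, fell by 1.96 and 1.89, and *Hells*, a chromatin remodeller needed for methylation of repeats, by 1.70 and 1.92.

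Among the 5 genes that supply methyl groups, 3 were called lower and 2 higher in each genotype, and with library totals 3 lower in each, with 0 and 1 higher. With TMM 32.1% and 31.5% of all genes were called lower, and with library totals 60.3% and 60.9% (Ypel4+/+, Ypel4-/-). *Mat2a*, the catalytic subunit of the enzyme that makes S-adenosylmethionine, was at 179 ± 24.4 CPM in Ypel4+/+ Poly-E and 45.8 ± 10.03 CPM in Ypel4+/+ Ortho-E and fell by 1.91, and by 1.96 in Ypel4-/- cells. Its regulatory subunit *Mat2b* went from 52.7 ± 3.67 to 139 ± 8.43 CPM in the same groups, a rise of 1.44 with TMM (1.597 in Ypel4-/- cells), which was 0.15 and 0.18 and not called with library totals.

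*Ogt*, the transferase that adds N-acetylglucosamine to proteins and binds TET2 and TET3, rose most among the 45 in both genotypes. It went from 333 ± 104 CPM in Ypel4+/+ Poly-E to 2447 ± 160 CPM in Ypel4+/+ Ortho-E (SD, n = 4 each), a rise of 2.91 (adjusted p = 5.39e-12, edgeR), and rose by 3.19 in Ypel4-/- cells. With library totals it also rose, by 1.64 and 1.77. *Trim28*, a corepressor that protects imprinted methylation, rose by 1.62 and 1.84, and with library totals by 0.34 and 0.42.

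Of the 9 base excision repair genes, 7 were tested in Ypel4+/+ cells, with 3 higher and 4 lower, and 8 in Ypel4-/- cells, with 3 higher and 4 lower. With library totals 4 were again called lower in each genotype and none higher. With TMM 26.4% and 29.5% of all genes were called higher and 32.1% and 31.5% lower (Ypel4+/+, Ypel4-/-). *Xrcc1*, the scaffold of the repair complex, fell by 1.66 and 2.19. A further 10 genes were grouped as readers, a label that does not state binding to methylated DNA for each of them. Of these 10, 5 were called lower and 1 higher in Ypel4+/+ and 6 lower and 1 higher in Ypel4-/- cells. With library totals 9 were called lower and none higher in each genotype. With library totals 60.3% and 60.9% of all genes were called lower and 10.4% and 11.2% higher (Ypel4+/+, Ypel4-/-). In this group *Mbd3*, a subunit of the NuRD complex, fell by 1.94 and 1.41, and *Mbd4*, which encodes a glycosylase, by 1.92 and 1.83. *Gadd45g*, a relative of *Gadd45a* picked out after its values were seen, was at −0.59 and −0.16 with TMM and not called, and was called lower with library totals (−1.87 and −1.55). *Gadd45b*, likewise picked out, had too few counts for the Ypel4+/+ fit and was not called in Ypel4-/- cells. Between genotypes none of the 39 genes tested in Poly-E and none of the 35 in Ortho-E was called, and 2 and 1 had an unadjusted p under 0.05.

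**Figure D5:**
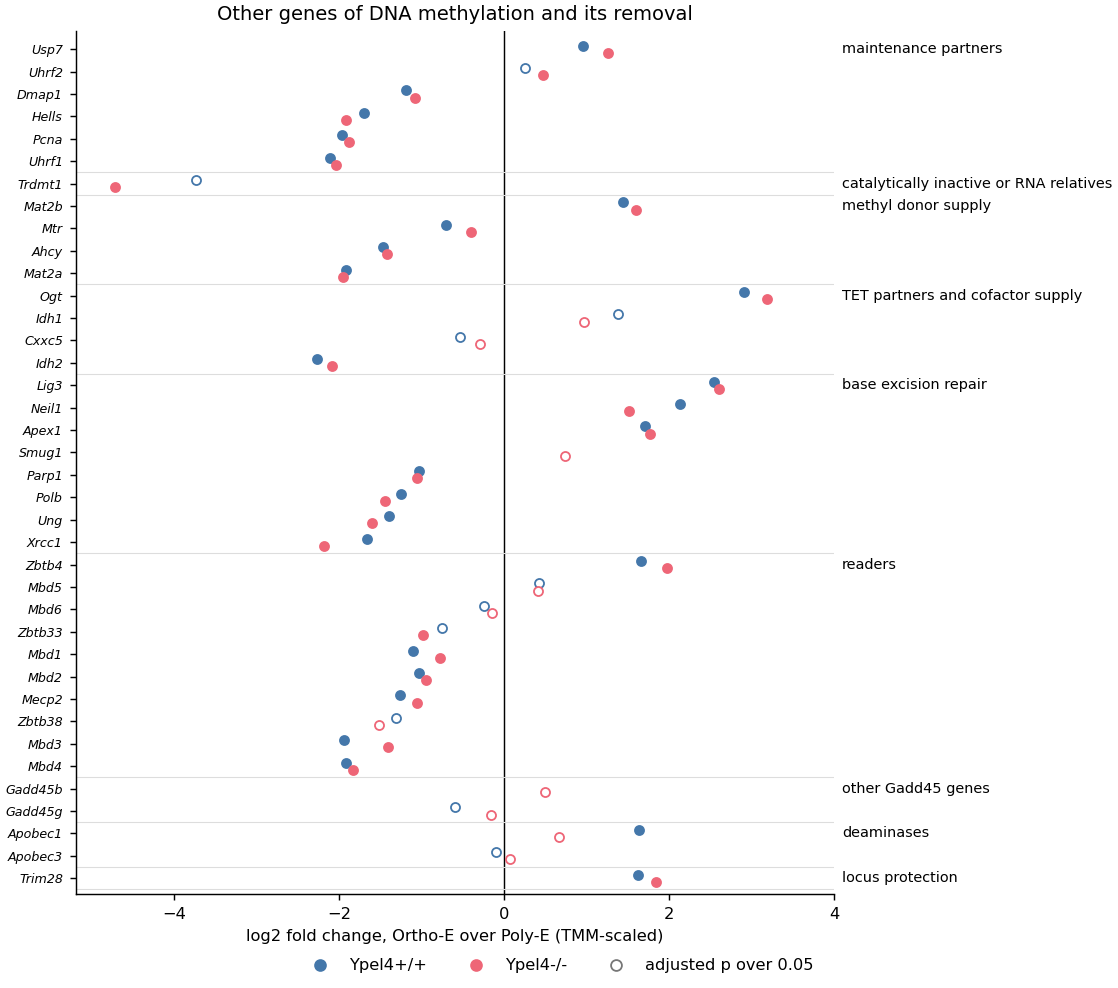
Log2 fold change between Ortho-E and Poly-E cells (TMM-scaled) of tested genes among 45 other genes of DNA methylation (1 not shown), grouped by role, for Ypel4+/+ (blue) and Ypel4-/- mice (red). Filled points passed an adjusted p of 0.05. *Uhrf1*, *Hells*, *Pcna* and *Mat2a* lie left of 0 and *Ogt* furthest right in both genotypes, and *Usp7* and *Uhrf2* change sign with library totals.

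The genes whose CPM followed each of the 3 most abundant members most closely over the 16 libraries were picked from 4834 genes by Pearson's r, which here mostly reflects the gap between the populations. For *Gadd45a* they were *Ube2o*, *Mafk* and *Trim10* (r = 0.999 for each), for *Dnmt1* *Eftud2*, *Mcm2* and *Cdc6* (r = 0.998, 0.998 and 0.997), and for *Tet3* *Serinc3*, *Mical3* and *Ndst2* (r = 0.989, 0.986 and 0.985). With the group means removed, r was 0.985, 0.974 and 0.964 for the genes like *Gadd45a*, 0.935, 0.892 and 0.870 for those like *Dnmt1*, and 0.947, 0.920 and 0.933 for those like *Tet3*. The points share libraries and scaling factors.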

How the data were processed

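RNA of sorted Poly-E and Ortho-E cells was sequenced by the authors, passed through the nf-core/rnaseq pipeline (GRCm38) and deposited as raw counts per gene from featureCounts 1.6.4, per the file headers. The deposited counts are read pairs on exons, counted on either strand, leaving out pairs with more than 1 mapping place or gene. Groups and replicate numbers came from the sample titles. No library was a copy of another: any 2 differed in at least 11519 genes. Whether replicates are separate mice is not stated in the labels, so p-values measure the spread between these libraries. The lists of members, other genes and markers were chosen with earlier results of these data known.

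Genes whose counts summed to 10 or more in a fit were tested with edgeR 4.0.16 in R 4.3.3 (quasi-likelihood, robust, TMM), with Benjamini-Hochberg adjustment at 0.05, on 8 libraries for each comparison and 16 for the interaction. Ratios were tested with exact permutation in scipy 1.17.1. The fits were tested on simulated counts with 200 genes changed in both directions. Between the populations 6871 and 7305 genes were called, so the simulation does not cover a shift of that size. Alternatives were DESeq2 1.42.0, its size factors, library totals, filterByExpr, no filter, globin genes left out, all 16 libraries in a fit, the replicate number as a block, a pseudocount of 0.1 and each library left out. Named genes were the 8 members, *Ypel4*, *Uhrf1*, per comparison the 4 called other genes with the largest change in each direction and a mean of at least 10 CPM in some group, and the 3 genes most like each of the 3 most abundant members. Of these, 1 gene is not reported here. Depth was 2670173 to 12451234 counts per library. Gene positions came from the deposited files, exons from GENCODE M21 and promoter sequences from RefSeq (GRCm38.p6), where all 8 members had a window.

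Whether replicate numbers pair libraries was checked from correlations of deviations from group means over 7852 genes. Same-numbered Poly-E and Ortho-E libraries of a genotype carry a shared further number in the deposited names, read here as the mouse, and correlated at 0.212 to 0.361 in Ypel4+/+ and 0.057 to 0.308 in Ypel4-/- mice. In Ypel4+/+ 8 of 8 and in Ypel4-/- 7 of 8 libraries correlated best with their own number. The main fits and the ratio tests leave this pairing out, and the replicate block takes it in. Same-numbered libraries of the genotypes correlated at 0.160 to 0.446 in Poly-E and at −0.048 to 0.169 in Ortho-E. In Poly-E different numbers reached 0.409, and 3 of 8 libraries correlated best with their own number, beside 5 of 8 in Ortho-E. Pairing between the genotypes was therefore not established in either population, and counts over such pairs are description.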

Additional observations from a re-analysis of the deposited data

Results flagged for a closer look

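In groups of 4 libraries, 7 of 44 sets of values held a library far from the other 3. Of these, 6 rest on a single read pair in a gene that had no count in the other 3 libraries. *Dnmt3b* was at 0.0662 CPM in Ypel4+/+ Poly-E replicate 3, at 0.0514 CPM in Ypel4-/- Poly-E replicate 4 and at 0.333 CPM in Ypel4+/+ Ortho-E replicate 3. *Tet1* was at 0.0662 CPM in Ypel4+/+ Poly-E replicate 3 and at 0.328 CPM in Ypel4-/- Ortho-E replicate 3, and *Tet2* at 0.233 CPM in Ypel4+/+ Ortho-E replicate 4. The log2 ratio of *Dnmt3a* plus *Dnmt3b* to *Dnmt1* was −7.15 in Ypel4-/- Ortho-E replicate 4, where the next lowest library was at −5.99. Replicate 4 held 1 count each of *Dnmt3a* and *Dnmt3b*, so the pseudocount of 0.5 weighs heavily in its value. It held 672 counts of *Dnmt1*, where the rest of its group held 221 to 279. The part of depth in this value was not tested.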

How the results depend on the processing

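The counts of called members (4 in each genotype between populations, 0 between genotypes) and of the 45 other genes stayed within 1.5 times under every alternative run. Over the alternatives the members called between populations were 4 to 5 in Ypel4+/+ and 4 in Ypel4-/- cells. With library totals *Tet3* left the called members and *Tet2* or *Dnmt3a* entered. Their split by direction moved further: with library totals the other genes went from 10 higher and 17 lower to 2 and 27 in Ypel4+/+ cells, and from 10 and 19 to 3 and 26 in Ypel4-/- cells. *Dnmt1*, *Gadd45a* and *Tdg* kept their direction and call between populations under every alternative. With library totals the direction turned for *Tet3* (−0.30 in Ypel4+/+, −0.13 in Ypel4-/-), *Dnmt3a* in Ypel4+/+ (−0.92) and *Tet2* in Ypel4-/- cells (−0.84), and for *Gadd45a* between genotypes in Ortho-E (0.0078). With a pseudocount of 0.1 the difference in the log2 ratio of *Tet2* to *Tet3* turned to −0.63 and −0.18 between populations (Ypel4+/+, Ypel4-/-) and to 0.044 between genotypes in Ortho-E. Of all genes, 1 was called between genotypes in Poly-E, but 4 with no filter, 2 with DESeq2, 3 with all 16 libraries in the fit, 4 with the replicate block and 1 to 2 with a library left out (2 without Ypel4-/- Poly-E replicate 1). In Ortho-E the 3 became 5 with no filter and 15 with the replicate block, and for the interaction 0 became 1 with DESeq2, 1 with the replicate block and 0 to 1 with a library left out (1 without Ypel4+/+ Ortho-E replicate 1). The replicate block changed no call of a member. In Ortho-E, 5 of 8 libraries correlated best with their own number.

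Leaving out a library turned the sign of small differences that were not called. Their ranges were −0.011 to 0.60 and −0.88 to 0.054 for *Dnmt3a* between populations (Ypel4+/+, Ypel4-/-). Between genotypes they were −0.011 to 0.13 for *Dnmt1* in Poly-E, and in Ortho-E −0.77 to 0.16 for *Dnmt3a*, −0.042 to 0.11 for *Tet3* and −0.11 to 0.10 for *Gadd45a*. For the interaction they were −0.050 to 0.27 for *Dnmt1* and −0.019 to 0.56 for *Tdg*. For the log2 ratio of *Dnmt3a* plus *Dnmt3b* to *Dnmt1* they were −0.031 to 0.42 in Poly-E and −0.53 to 0.065 in Ortho-E between genotypes, and for *Tet2* to *Tet3* −0.15 to 0.60 and −0.29 to 0.39 between populations (Ypel4+/+, Ypel4-/-) and −0.43 to 0.39 in Poly-E and −0.43 to 0.10 in Ortho-E between genotypes. The causes were not tested. Mean CPM moved by more than 1 SD in 17 of 224 recomputed values. Depth limits the precision for the 4 genes with at most 14 counts in a library.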

Other observations

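Within each group, *Tet3* on the TMM scale was higher in the libraries numbered 3 and 4 than in those numbered 1 and 2, which also had fewer counts. In Ypel4+/+ Poly-E it was at 134 and 137 CPM in replicates 3 and 4 (10076589 and 7383540 counts) and at 101 and 89.6 CPM in replicates 1 and 2 (3843335 and 3348608 counts). In Ypel4-/- Poly-E it was at 119 and 125 CPM against 91.2 and 80.0 CPM. With library totals the order did not hold in Ypel4-/- Ortho-E, where replicate 4 was at 151 CPM and replicate 2 at 153 CPM of the library totals. On the TMM scale the order was not particular to *Tet3*. *Dnmt1* had it in Poly-E of both genotypes and not in Ortho-E. *Gadd45a* had it in every group except Ypel4+/+ Poly-E, and *Tdg* in Ypel4-/- Ortho-E alone. In Ypel4+/+ Poly-E *Dnmt1* was at 570 and 530 CPM in replicates 3 and 4 and at 431 and 432 CPM in replicates 1 and 2. The *Tet3* pattern was noticed after the values were seen, both genotypes share it, and what the numbers stand for in the laboratory is not given in the sources used here.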
